A study of Homo sapiens with 24 samples.

Results

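Inflammatory chemokines and interleukin-6 (IL6) were followed across RNA-seq libraries of 2 clear cell renal cell carcinoma (ccRCC) cell lines. The genes were taken by name from a fixed list: CXCL1, CXCL2, CXCL3, CXCL5, CXCL6, CXCL8, CCL2, CCL5, CCL20 and IL6. That list was chosen with earlier results of these data known. All 10 were present among the 26475 genes of each file. The lines were 786-M1A and OS-LM1, metastatic derivatives of the 786-O and OS-RC2 lines, both mutant for the tumour suppressor VHL and both carrying a luciferase transgene, grown in RPMI with serum. In each line, cells carried shPAX8-1 or shPAX8-2, a pair of RNAi constructs against the renal lineage transcription factor PAX8, or sgNTC18, a non-targeting guide RNA, with 4 replicates per group and 24 libraries in all. The control was therefore a guide RNA and the treated groups carried hairpins, so that the kind of construct and the depletion of PAX8 cannot be told apart in any comparison with sgNTC18. The sources used here do not say whether the sgNTC18 and shPAX8 libraries were grown and prepared in one experiment, and a difference between experiments cannot be told apart from depletion either. It was not stated whether replicates came from separate cultures, so that p-values measure only the spread between these libraries, which may be technical. In bulk libraries, fewer cells making a transcript and less of it per cell cannot be told apart.

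Chemokines are small secreted proteins that guide leukocytes along a gradient through receptors with many membrane-spanning segments. CXCL1, CXCL2, CXCL3, CXCL5, CXCL6 and CXCL8 carry an ELR motif before their cysteines, bind the receptor CXCR2 and draw in neutrophils, and CXCL8 and CXCL6 also bind CXCR1. CCL2 recruits monocytes through CCR2, CCL5 recruits T cells and monocytes, and CCL20 recruits CCR6-bearing lymphocytes and dendritic cells. IL6 is a cytokine that signals through IL6R and gp130 to STAT3 and drives the acute-phase response. Many of these genes are textbook targets of the transcription factor NF-κB.

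The genes lie on 4 chromosomes. CXCL1, CXCL2, CXCL3, CXCL5, CXCL6 and CXCL8 lie together on chromosome 4 (GRCh38.p14), from CXCL8 at chr4:73740569-73743716 to CXCL2 at chr4:74097040-74099195. CCL2 lies at chr17:34255285-34257203 and CCL5 at chr17:35871491-35880360, on the same chromosome. CCL20 lies at chr2:227813842-227817556 and IL6 at chr7:22727200-22731998. Promoters, taken as 250 bases before to 50 bases after the annotated start, were given by RefSeq (GRCh38.p14) for 8 of the 10 genes, all but CCL2 and CCL5. The motif GGNNTTTCC, read on both strands and typical of NF-κB sites, was found in 8 of these 8 promoters, and in 6.26% of all 35116 promoters of that length. The 30 bases around the match farthest upstream are shown because they are the element that all 8 had in common, 5′ to 3′ on the strand of the gene, with the match in capitals.
CXCL1: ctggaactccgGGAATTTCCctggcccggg
CXCL2: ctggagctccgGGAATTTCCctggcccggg
CXCL3: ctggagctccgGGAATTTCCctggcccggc
CXCL5: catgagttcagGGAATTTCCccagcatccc
CXCL6: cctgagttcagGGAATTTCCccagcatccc
CXCL8: ttgcaaatcgtGGAATTTCCtctgacataa
CCL20: ttgatcaatggGGAAAACCCcatgtggcaa
IL6: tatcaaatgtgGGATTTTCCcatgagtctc

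These windows were chr4:73869304-73869333 (plus strand) for CXCL1, chr4:74099254-74099283 (minus) for CXCL2, chr4:74038749-74038778 (minus) for CXCL3, chr4:73998749-73998778 (minus) for CXCL5, chr4:73836578-73836607 (plus) for CXCL6, chr4:73740467-73740496 (plus) for CXCL8, chr2:227813752-227813781 (plus) for CCL20 and chr7:22727117-22727146 (plus) for IL6. The matches began between 91 bases (CXCL8) and 72 bases (IL6) before the start. CXCL1, CXCL2 and CXCL3 each held 2 matches, and their windows were alike, as were those of CXCL5 and CXCL6. A TATA box (TATAAA) was found in CXCL8 and CCL20 (2 of 8, against 11.5% of all promoters), an AP-1 motif (TGANTCA) in CXCL8 (1 of 8, against 7.71%) and a C/EBP motif (TTGCNNAA) in CXCL2 and IL6 (2 of 8, against 10.5%). A match describes letters in the window and is not evidence of binding.

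**Figure D1:**
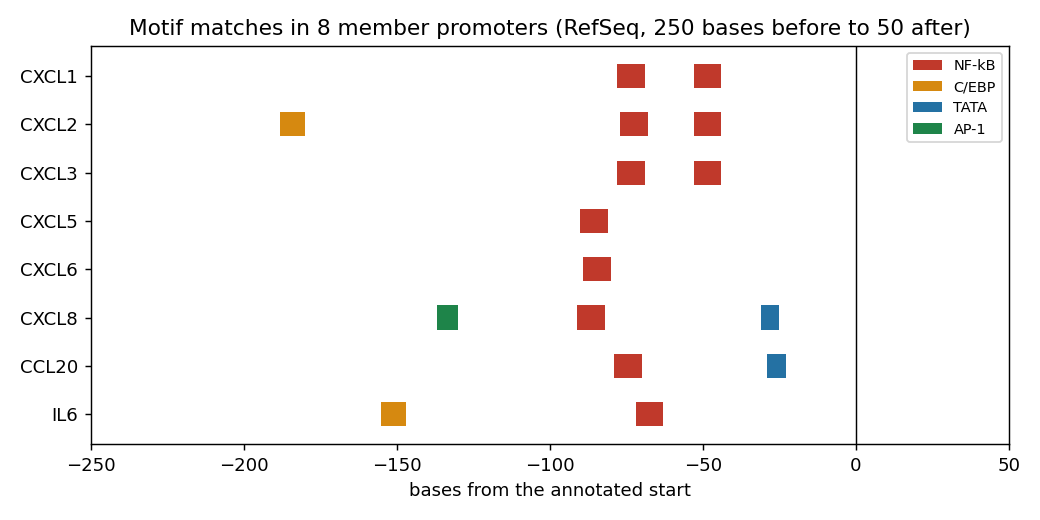
Positions of the 4 motifs in the promoters of 8 of the genes, in bases from the annotated start, with one bar per match. The NF-κB motif was present in all 8, and CXCL1, CXCL2 and CXCL3 held 2 matches each.

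Total expected counts ranged from 11634419 to 52059375 over the libraries. Levels are given as CPM, counts scaled to a common library size by TMM, an edgeR method that corrects for library composition, and as TPM where genes are compared with each other, since TPM also divides by transcript length. Differences between groups were tested by edgeR's quasi-likelihood test with adjusted p-values over all genes tested, and a gene is said to have risen or fallen where the adjusted p was under 0.05. PAX8 itself fell from 341.0 ± 44.7 CPM (SD, n = 4) with sgNTC18 in 786-M1A cells, to 18.7 ± 4.31 with shPAX8-1 and 42.4 ± 2.36 with shPAX8-2. The OS-LM1 level fell less, from 259.9 ± 14.5 CPM to 78.2 ± 13.1 and 79.2 ± 13.7. Of 12 epithelial and renal markers, 11 were at 1 TPM or more on average with sgNTC18 in each line and 10 with either construct. CDH16 was under 1 TPM with either construct, EPCAM was listed at 0 in the OS-LM1 sgNTC18 libraries, and CDH1 was under 1 TPM in 786-M1A cells. Their summed level was 8640.0 to 9208.9 TPM with sgNTC18 and 6449.1 to 7157.6 with the constructs in 786-M1A cells, and 8155.7 to 10775.0 and 4846.2 to 6836.5 in OS-LM1 cells. By contrast, endothelial markers summed to at most 0.510 TPM in any library. The 786-M1A shPAX8-1 libraries fell into 2 pairs. Within a pair, the chi-square value per gene came to 14.1 (replicates 1 and 2) or 3.73 (replicates 3 and 4), and across pairs to 44.7 to 77.4. Results that rest on this group are given for each pair where they changed. Other groups were not uniform either. The value reached 43.8 in OS-LM1 sgNTC18 and ran from 16.0 to 89.5 in OS-LM1 shPAX8-2, without such pairs. It also grows with depth, which in OS-LM1 shPAX8-2 ran from 14567945 to 52059375 counts.

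In the sgNTC18 libraries, 9 of the 10 genes were above 1 TPM on average in OS-LM1 cells and 8 in 786-M1A cells. The lines were compared first without depletion, to describe the state from which the depleted cells differed. In 786-M1A cells, CCL2 was the most abundant per length (48.8 ± 2.96 TPM, SD, n = 4), followed by IL6 (29.1 ± 0.925) and CXCL1 (18.5 ± 2.68). The ranges of CXCL1 and CCL5 overlapped, as did those of CXCL8 and CXCL5, whereas other neighbours in the order did not. OS-LM1 cells were led by CXCL1 (252.8 ± 60.3 TPM), whose range did not meet that of the next gene. CXCL5, CCL2 and IL6 followed, with overlapping ranges between neighbours and means of 84.8, 81.3 and 71.8 TPM. CXCL3 was low in both lines, at 1.90 and 3.16 TPM.

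CXCL6 was at or near 0 throughout. It was listed at 0 counts in all 8 sgNTC18 and shPAX8-2 libraries of 786-M1A cells, where a count of 0 allows up to 3 counts, or 0.0963 to 0.258 CPM. Its counts reached at most 5 in OS-LM1 cells. No fold change is given for it, and it passed the filter on low counts in no comparison.

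**Figure D2:**
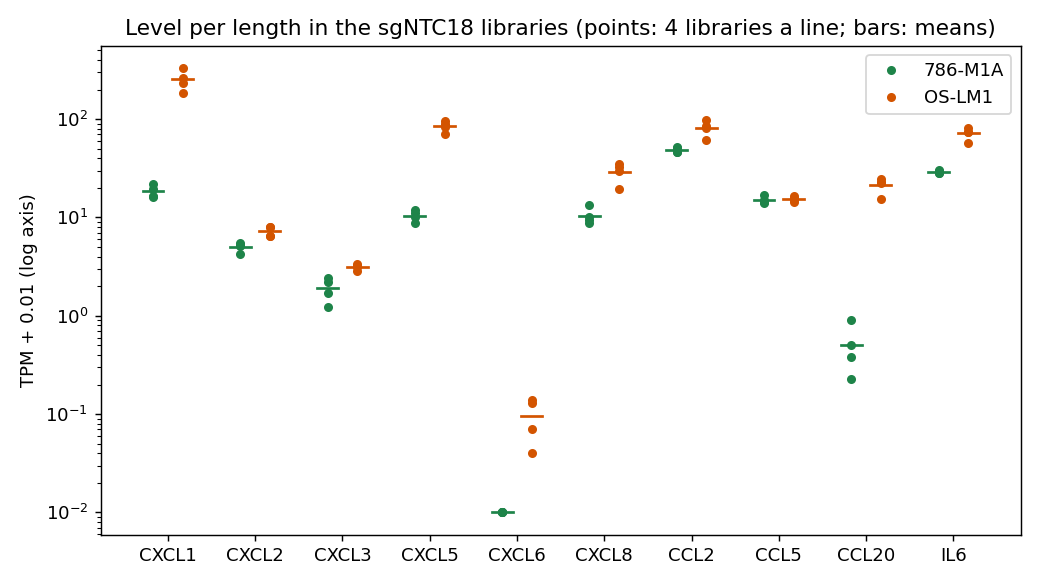
TPM plus 0.01, on a log axis, of the 10 genes in the 4 sgNTC18 libraries of each line, with points for libraries and bars for means. OS-LM1 points lay above 786-M1A points for CXCL1 and CXCL5, and the lines overlapped for CCL5.

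CCL20 passed the filter on low counts over all 24 libraries through its OS-LM1 libraries alone, so that it had to differ between the lines and is left out of the counts between lines. Without depletion, 7 of the other 8 genes tested were higher in OS-LM1 than in 786-M1A cells, against 32.0% of the 15665 genes tested (31.0% were lower), and CCL5 did not pass the test. CXCL1 showed 165.2 ± 39.7 CPM (SD, n = 4) against 11.4 ± 1.91, which was 14.4-fold higher (log2 fold change 3.85 ± 0.17 SE, edgeR adjusted p = 4.8e-17). CXCL5 was 8.57-fold higher (log2 3.10 ± 0.12, edgeR adjusted p = 4.7e-18). The smaller differences were 2.95-fold for CXCL8, 2.61-fold for IL6, 1.80-fold for CXCL3, 1.76-fold for CCL2 and 1.52-fold for CXCL2, with groups that did not overlap. CCL5 stood at 10.8 ± 0.732 CPM in OS-LM1 and 9.96 ± 1.06 in 786-M1A cells, a log2 difference of 0.11 with a 95% interval of -0.41 to 0.63. CCL20 was at 9.85 ± 1.88 CPM in OS-LM1 cells and rested on 3 to 9 counts per library in 786-M1A cells, where it was 0.213 ± 0.116 CPM. Line and culture history cannot be told apart here.

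**Figure D3:**
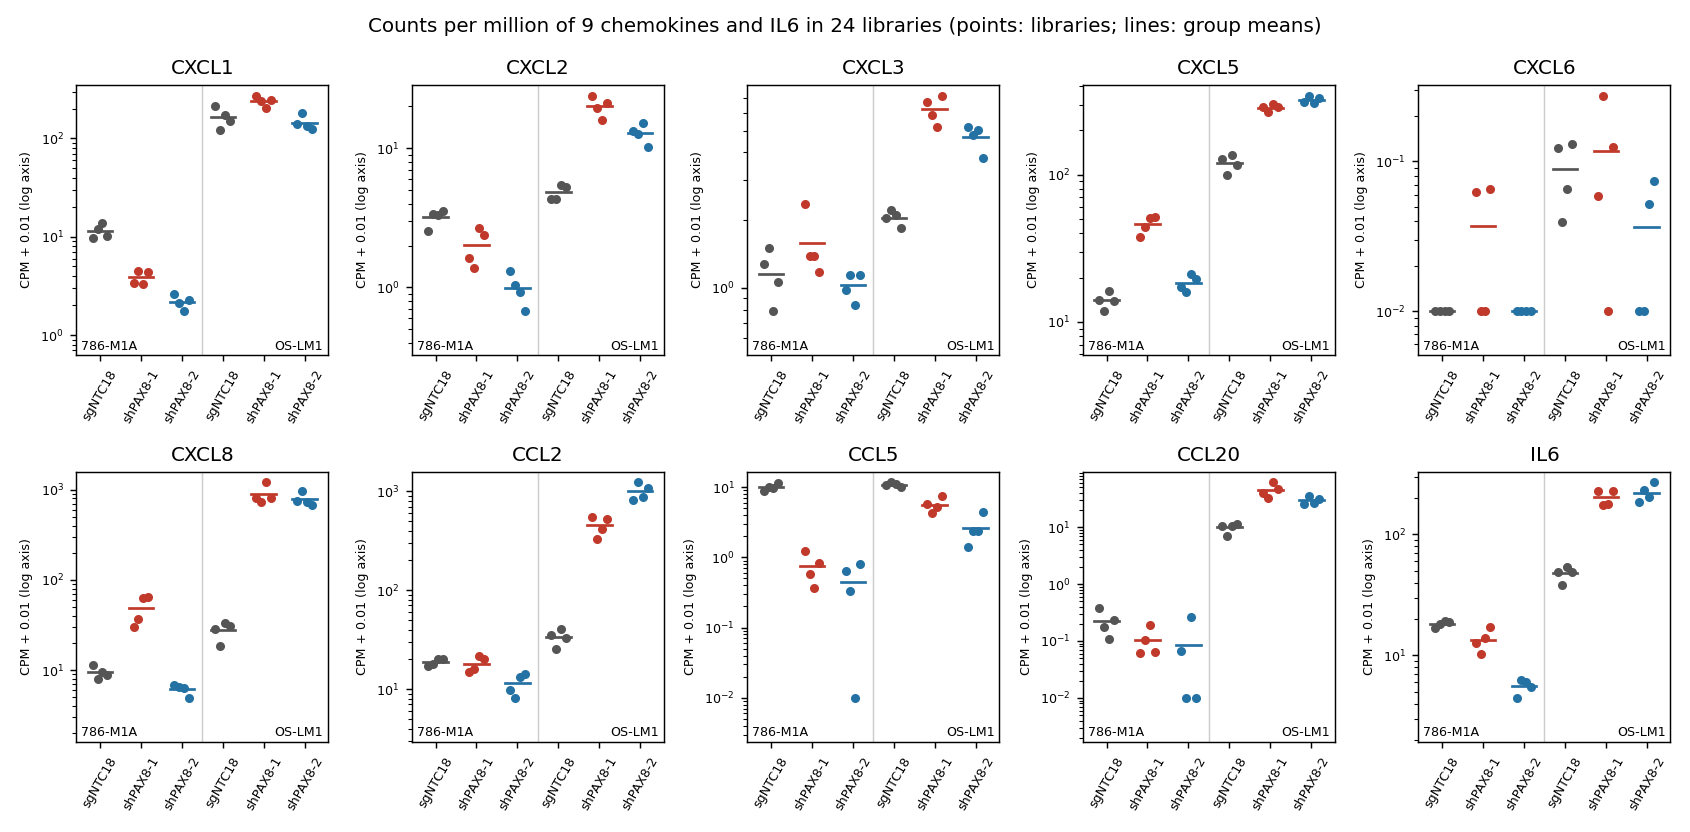
CPM plus 0.01, on a log axis, of each gene in the 24 libraries, with points for libraries and horizontal lines for group means. In OS-LM1 cells CXCL8 and CCL2 lay far above sgNTC18 with both constructs, whereas in 786-M1A cells CXCL8 rose with shPAX8-1 and fell with shPAX8-2.

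Depletion in OS-LM1 cells went with a rise of most of these genes with either construct, most of all CXCL8 and CCL2. With shPAX8-1, 8 of 9 tested genes rose (35.6% of 15049 genes did) and CCL5 fell (35.8% of genes did). With shPAX8-2, 7 rose (34.3% of genes) and CCL5 fell (34.1%), while CXCL1 did not pass the test. The median log2 fold change of the 9 genes was 2.02 with shPAX8-1 and 1.44 with shPAX8-2, against -0.01 over all genes with each. Both comparisons used the same 4 sgNTC18 libraries, so that they are not independent of each other. Taking the mean of both constructs, 7 rose (36.4% of genes) and 1 fell (37.1%).

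CXCL8, the main neutrophil attractant, was at 28.4, 18.7, 33.7 and 31.0 CPM with sgNTC18. With shPAX8-1 it was at 808.7, 739.3, 1203.1 and 801.8 CPM, and with shPAX8-2 at 747.2, 957.3, 739.6 and 675.3 CPM. Every depleted library was thus far above every control, and replicate 3 of shPAX8-1 was the highest. The rise was 31.3-fold with shPAX8-1 (log2 4.97 ± 0.20 SE, edgeR adjusted p = 5.8e-12) and 28.1-fold with shPAX8-2 (log2 4.81 ± 0.20, edgeR adjusted p = 1.0e-11).

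The monocyte attractant CCL2 was at 35.1, 25.4, 40.1 and 32.7 CPM with sgNTC18. It reached 551.1, 329.5, 416.2 and 518.7 CPM with shPAX8-1 and 816.6, 1224.6, 864.0 and 1076.2 CPM with shPAX8-2. The 3 groups did not overlap. The rise was 13.4-fold with shPAX8-1 (log2 3.74 ± 0.18, edgeR adjusted p = 2.1e-11) and 30.1-fold with shPAX8-2 (log2 4.91 ± 0.19, edgeR adjusted p = 1.9e-12). Per length, CCL2 became the most abundant of the 10 genes with either construct, at means of 1111.4 and 2366.9 TPM, and the ranges of CCL2 and CXCL8 overlapped with shPAX8-1 only.

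IL6 stood at 49.2, 38.1, 54.1 and 48.7 CPM with sgNTC18, at 227.9, 173.7, 177.3 and 229.3 with shPAX8-1 and at 184.8, 231.6, 202.5 and 269.0 with shPAX8-2. Both depleted groups lay wholly above the control and overlapped each other. It rose 4.18-fold and 4.69-fold (log2 2.06 ± 0.13 and 2.23 ± 0.13, edgeR adjusted p = 3.6e-11 and 1.6e-11). CCL20 rose 4.49-fold and 3.02-fold, from 9.85 ± 1.88 CPM to 44.9 ± 12.1 and 29.6 ± 4.47, with no overlap with sgNTC18.

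Among the other ELR chemokines, CXCL2 rose 4.06-fold and 2.66-fold, CXCL3 2.99-fold and 2.29-fold, and CXCL5 2.35-fold and 2.72-fold. None of these groups overlapped its control. CXCL1, the highest of the set with sgNTC18, moved least. It was at 215.4, 121.1, 173.1 and 151.1 CPM with sgNTC18, at 272.4, 241.3, 203.9 and 248.8 with shPAX8-1 and at 138.9, 180.6, 134.0 and 125.9 with shPAX8-2. It rose 1.44-fold with shPAX8-1, with overlapping groups (edgeR adjusted p = 0.0035), and its log2 difference with shPAX8-2 was -0.18 with a 95% interval of -0.49 to 0.13. Over both constructs it did not pass the test (log2 0.17), but did so without replicate 1 of sgNTC18 (log2 0.33, edgeR adjusted p = 0.024). CXCL1, CXCL2 and CXCL3 are closely related in sequence, as are CXCL5 and CXCL6, and the division of their shared reads by RSEM is an estimate.

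CCL5 went the other way. Its 4 sgNTC18 libraries lay between 9.88 and 11.6 CPM, those of shPAX8-1 at 5.69, 4.23, 5.26 and 7.32 and those of shPAX8-2 at 1.40, 2.33, 2.34 and 4.35. No depleted library reached the control range. The fall was 1.94-fold with shPAX8-1 and 3.97-fold with shPAX8-2 (edgeR adjusted p = 5.4e-04 and 2.5e-07).

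Leukocyte markers, taken as a sum, were also higher in the depleted OS-LM1 libraries, though not each of them was. The summed level of 8 leukocyte markers was 77.2 to 89.8 TPM in the OS-LM1 sgNTC18 libraries, 252.1 to 331.2 with shPAX8-1 and 196.1 to 237.1 with shPAX8-2. CD14, CD68 and LYZ were the 3 of 8 at 1 TPM or more in the depleted groups, the pan-leukocyte marker PTPRC was under 1 TPM, and CD3E was listed at 0 in all 12 libraries. ITGAM went the other way, from 1 TPM or more on average with sgNTC18 to under 1 TPM with either construct. Summed fibroblast markers, mainly COL1A1, went from at most 6.21 TPM to 29.8 to 59.6 TPM. Their part in the result was not tested. Log2 fold changes also followed the GC content of transcripts across genes (Spearman -0.323 and -0.277 over 14461 genes), and with that trend removed every call of the 9 genes against sgNTC18 was kept.

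In 786-M1A cells most of the genes tested fell with shPAX8-2, while the changes with shPAX8-1 went both ways, and CXCL8 rose with one construct and fell with the other. With shPAX8-1, 2 of 8 tested genes rose (CXCL5 and CXCL8, 36.1% of 14452 genes did) and 4 fell (34.5% did). With shPAX8-2, 1 rose (CXCL5, 31.5% of genes) and 6 fell (30.9%). The median log2 fold change of the 8 genes was -0.23 and -1.19, against 0.03 and 0.02 over all genes. Over the mean of both constructs 2 rose (35.7%) and 5 fell (34.7%). Of these, CCL2 (log2 -0.38) did not pass the test with replicates 3 and 4 of shPAX8-1 alone (-0.28, edgeR adjusted p = 0.065). These comparisons also shared their 4 sgNTC18 libraries. Summed leukocyte markers were at 199.1 to 219.0 TPM with sgNTC18, 182.6 to 292.3 with shPAX8-1 and 291.5 to 369.2 with shPAX8-2. Single markers went both ways, with CSF1R at 1 TPM or more on average only with sgNTC18 and CD14 only with the constructs. Summed fibroblast markers were at 183.2 to 232.0, 62.5 to 128.9 and 204.3 to 274.8 TPM. The part of either in these results was not tested. The Spearman correlation of log2 fold change with GC content was -0.361 with shPAX8-1 and -0.099 with shPAX8-2, and every call of these genes was kept with the trend removed.

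CXCL8 was at 11.5, 8.07, 9.51 and 8.78 CPM with sgNTC18 and at 30.1, 37.0, 62.8 and 64.6 CPM with shPAX8-1. The 4 depleted libraries lay above all controls, in the pairs noted above. The rise was 5.20-fold (log2 2.38 ± 0.23, edgeR adjusted p = 2.3e-07), with log2 values of 1.82 from replicates 1 and 2 alone and 2.76 from replicates 3 and 4 alone. It was 1.62 with the GC trend removed. With shPAX8-2 it was at 6.77, 6.47, 6.30 and 4.93 CPM, below every control. That fall was 1.52-fold (log2 -0.61 ± 0.24, edgeR adjusted p = 0.035), and it no longer passed the test without replicate 1 or 3 of sgNTC18 or replicate 2, 3 or 4 of shPAX8-2 (log2 -0.51, -0.61, -0.63, -0.61 and -0.53).

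CCL5 fell most. It was at 8.75, 10.0, 9.77 and 11.3 CPM with sgNTC18, between 0.361 and 1.20 with shPAX8-1 and at 0.626, 0.324, 0 and 0.800 with shPAX8-2. Depleted and control libraries were far apart, and the depleted ones rested on 0 to 23 counts each. The fall was 13.1-fold and 21.3-fold (log2 -3.71 ± 0.36 and -4.41 ± 0.40, edgeR adjusted p = 3.0e-07 and 2.5e-07).

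CXCL1 also fell with both constructs, from 9.61, 12.1, 13.8 and 10.2 CPM to 3.40, 4.43, 3.31 and 4.36 with shPAX8-1 and 2.62, 2.10, 1.74 and 2.27 with shPAX8-2. The 3 groups did not overlap. It fell 2.90-fold and 5.11-fold (edgeR adjusted p = 1.2e-06 and 5.5e-08). CXCL2 fell 1.58-fold and 3.18-fold. Its call with shPAX8-1 (log2 -0.66, edgeR adjusted p = 0.022) was lost without replicate 4 of sgNTC18 (-0.61) or without replicate 1 or 2 of shPAX8-1 (-0.58 and -0.52), and the value from replicates 3 and 4 of shPAX8-1 alone was -0.34 (edgeR adjusted p = 0.25).

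CXCL5, in contrast to CXCL1, rose 3.33-fold with shPAX8-1, from 13.9 ± 1.72 to 45.9 ± 6.43 CPM (SD, n = 4), with no overlap (edgeR adjusted p = 3.7e-08). With shPAX8-2 it was 1.33-fold higher at 18.4 ± 2.25 CPM, with overlapping groups (edgeR adjusted p = 0.016), and this call was lost without replicate 2 of sgNTC18 (log2 0.34, edgeR adjusted p = 0.060). CXCL3, at about 1 CPM, passed the test with neither construct (log2 0.49 with a 95% interval of -0.11 to 1.09, and -0.13 with -0.77 to 0.51).

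IL6 was at 16.7, 18.1, 19.2 and 18.8 CPM with sgNTC18, at 12.6, 10.2, 13.8 and 17.2 with shPAX8-1 and at 4.44, 6.20, 5.97 and 5.47 with shPAX8-2. Only the shPAX8-2 group was clear of the control. The fall was 3.26-fold with shPAX8-2 (log2 -1.70 ± 0.17, edgeR adjusted p = 4.8e-07) and 1.34-fold with shPAX8-1 (log2 -0.42, edgeR adjusted p = 0.024). The call with shPAX8-1 was lost without replicate 3 or 4 of sgNTC18 (-0.40 and -0.41) or replicate 2 of shPAX8-1 (-0.31), and the value was -0.22 from replicates 3 and 4 alone (edgeR adjusted p = 0.20).

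CCL2 in 786-M1A cells was between 17.2 and 20.2 CPM with sgNTC18, at 14.8, 16.0, 21.5 and 20.1 with shPAX8-1 and at 9.90, 8.15, 13.4 and 14.2 with shPAX8-2. The shPAX8-1 group overlapped the control and the shPAX8-2 group did not. It fell 1.64-fold with shPAX8-2 (log2 -0.72 ± 0.18, edgeR adjusted p = 0.0024), and its log2 difference with shPAX8-1 was -0.04 with a 95% interval of -0.41 to 0.32. CCL20 rested on 0 to 9 counts per library and was not tested within this line.

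**Figure D4:**
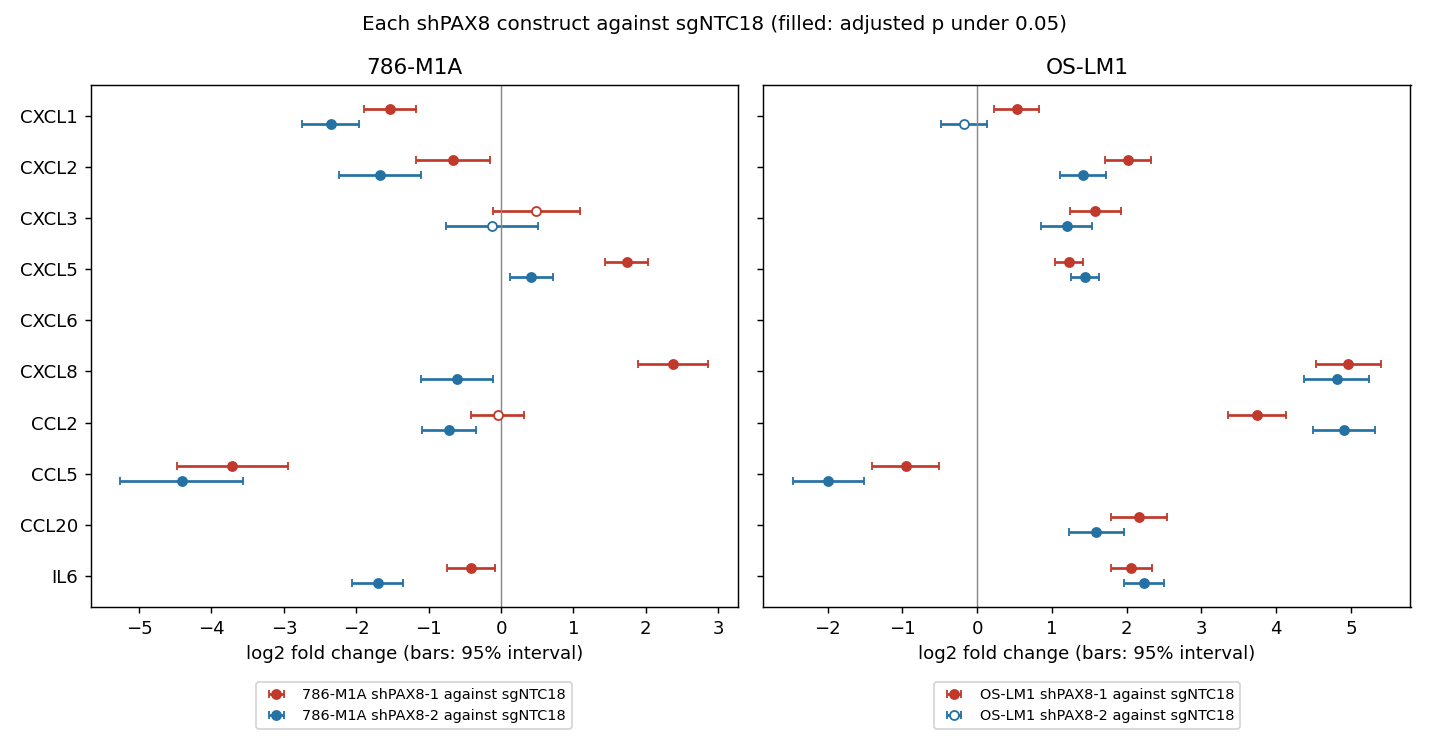
Log2 fold change, with 95% intervals, of each construct against sgNTC18 in 786-M1A (left) and OS-LM1 cells (right), with filled points for an adjusted p under 0.05. In OS-LM1 cells most points lay to the right of 0, and CCL5 lay to the left in both lines.

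The constructs were also compared with each other, which leaves the guide RNA control out. In 786-M1A cells, 6 of 8 genes were higher with shPAX8-1 than with shPAX8-2 (24.2% of genes were) and none was lower (22.9% of genes were), also at an unadjusted p under 0.05 in edgeR and with DESeq2. CXCL8 differed most, at 7.92-fold (log2 2.99 ± 0.24, edgeR adjusted p = 8.0e-07), or 2.27 on the log2 scale with the GC trend removed. CXCL5 (log2 1.32 ± 0.14) came next, then IL6 at 2.44-fold, CXCL2 at 2.01-fold, CXCL1 at 1.77-fold and CCL2 at 1.59-fold, all higher and without overlap. With replicates 1 and 2 of shPAX8-1 alone, CXCL2 (log2 0.59, edgeR adjusted p = 0.17) and CCL2 (0.44, 0.090) did not pass the test, and CXCL8 was at 2.46. PAX8 was 2.26-fold lower with shPAX8-1 in this comparison. Log2 fold changes followed GC content at a Spearman correlation of -0.555 over 13910 genes.

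In OS-LM1 cells, 4 of 9 genes were higher with shPAX8-1 (12.4% of genes) and 1 was lower (16.7%). CCL5 was 2.05-fold, CXCL1 1.63-fold, CXCL2 1.52-fold and CCL20 1.49-fold higher, and CCL2 was 2.24-fold lower (log2 -1.17 ± 0.17, edgeR adjusted p = 7.0e-05). CCL20 did not pass the test without replicate 3 of shPAX8-1 (log2 0.42, edgeR adjusted p = 0.054) or replicate 1 or 3 of shPAX8-2 (0.51 and 0.55). CXCL8 and IL6 did not pass it, with 95% intervals of -0.21 to 0.52 and -0.42 to 0.09 on the log2 scale. CXCL3 passed it without replicate 3 of shPAX8-1 (log2 0.49, edgeR adjusted p = 0.034), against 0.39 with all libraries. The log2 difference of PAX8 was -0.05, with a 95% interval of -0.31 to 0.21.

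Whether the lines responded differently was tested directly, by the interaction of line and depletion over all 24 libraries. The response was more positive in OS-LM1 cells for 7 of 8 genes other than CCL20, against 29.9% of 15665 genes, and for none was it more negative (28.8% of genes), also at an unadjusted p under 0.05 in edgeR and with DESeq2. CCL2 differed most, with a log2 difference of 4.74 ± 0.23 (edgeR adjusted p = 2.2e-15), and CXCL8 by 4.03 ± 0.27 (1.9e-12 by edgeR). IL6 differed by 3.24, CXCL2 by 2.92, CCL5 by 2.62, CXCL1 by 2.14 and CXCL3 by 1.23. For CCL5 this difference was between 2 falls, the larger in 786-M1A cells. For CXCL8 the 786-M1A response was the mean of a rise with shPAX8-1 and a fall with shPAX8-2 (log2 2.38 and -0.61). PAX8 itself differed by 1.87 in this test (edgeR adjusted p = 7.5e-10), since it fell less in OS-LM1 cells. The part of that unequal depletion was not tested. The response of CCL20 in 786-M1A cells was not measurable at 0 to 9 counts per library. Its fitted difference of 3.27 depends on those counts and was 3.97 without replicate 3 of 786-M1A shPAX8-2. CXCL5 rose in both lines and the difference was 0.29 with a 95% interval of 0.01 to 0.58 (edgeR adjusted p = 0.073). It passed the test without replicate 2 of 786-M1A sgNTC18, replicate 3 of OS-LM1 sgNTC18 or replicate 4 of 786-M1A shPAX8-1 (0.36, 0.36 and 0.32), and with replicates 1 and 2 of 786-M1A shPAX8-1 alone (0.33, edgeR adjusted p = 0.034).

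Depleted OS-LM1 cells stood far above depleted 786-M1A cells, with 8 of 8 genes other than CCL20 higher (41.7% of genes were, and 41.5% were lower). CXCL1 was 63.7-fold, CXCL8 48.2-fold, CCL2 47.0-fold and IL6 24.6-fold higher over both constructs. CXCL2 followed at 11.5-fold, CXCL5 at 10.5-fold, CCL5 at 6.64-fold and CXCL3 at 4.24-fold. The residual PAX8 transcript was also 2.80-fold higher in depleted OS-LM1 cells, and its part in these differences was not tested.

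The difference between the constructs was itself not the same in both lines for 4 genes, all more negative in OS-LM1 cells (14.5% of genes were), and for none was it more positive (12.7%), at an unadjusted p under 0.05 in edgeR or with DESeq2 either. CXCL8 differed by -2.80 ± 0.30 on the log2 scale, CCL2 by -1.81 ± 0.25, CXCL5 by -1.50 ± 0.16 and IL6 by -1.42 ± 0.22 (edgeR adjusted p = 2.7e-07, 1.1e-05, 1.8e-07 and 2.9e-05). For CCL2 this came from opposite directions, higher with shPAX8-1 in 786-M1A and with shPAX8-2 in OS-LM1 cells. CXCL1, CXCL2 and CXCL3 did not pass the test, with 95% intervals of -0.61 to 0.46, -0.98 to 0.26 and -0.83 to 0.43.

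**Figure D5:**
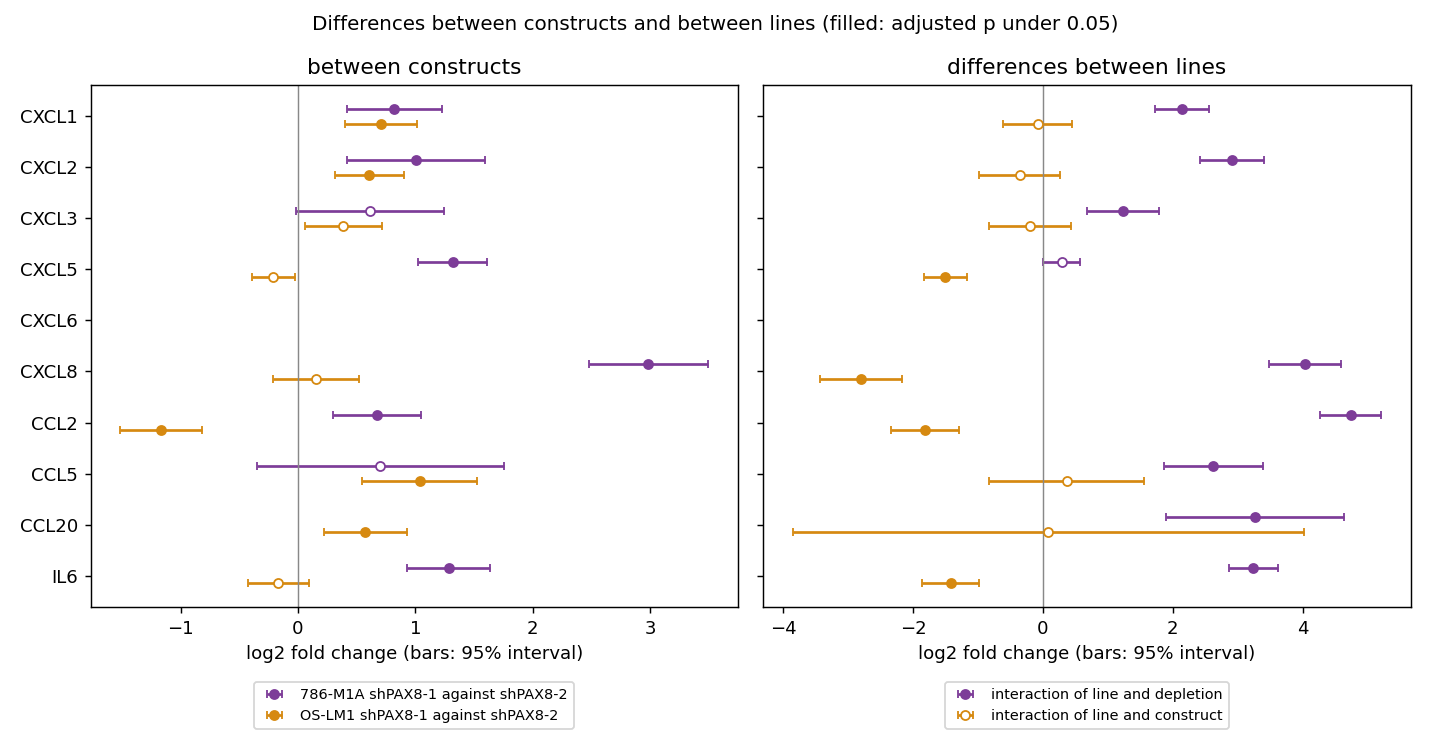
Left, log2 fold change of shPAX8-1 against shPAX8-2 in each line; right, the differences of the depletion response and of the construct difference between lines (OS-LM1 minus 786-M1A), with 95% intervals and filled points for an adjusted p under 0.05. The depletion difference lay to the right of 0 for CCL2 and CXCL8 and the construct difference to the left.

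Across the 24 libraries, the genes whose log2 CPM was most like that of CXCL8 were PRICKLE2, ABLIM1, TCEB3, TRIM2 and CDA (Pearson r of 0.988 to 0.980 among 11849 genes). Those most like CCL2 were CALD1, NUDT6, MFAP3L, RFFL and GCH1 (r of 0.990 to 0.983). The libraries of each of the 6 groups share line and construct, and these values are a description. Within groups, after removal of group means, the closest pairs of the set were CCL2 with CXCL5 (r = 0.771), CXCL5 with CXCL8 (0.640) and CCL2 with IL6 (0.634). The most opposed were CXCL3 with CXCL5 (-0.689) and CCL20 with CCL5 (-0.607). In 786-M1A cells CCL20 rested on 0 to 9 counts per library, and CCL5 on 0 to 23 in the depleted ones. The value for CCL20 with CCL5 therefore rests in part on counting error. CXCL3 was also low in 786-M1A cells, at 10 to 45 counts per library. CXCL3 and CXCL5 differ in GC content (50.5% and 37.1%), and GC trends were not removed from these values. The part of either in the value for CXCL3 with CXCL5 was not tested.

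The wider pathway was described from lists of related genes, whose medians are to be read against all-gene medians of 0.03 and 0.02 in 786-M1A and -0.01 and -0.01 in OS-LM1 cells for shPAX8-1 and shPAX8-2 against sgNTC18. The counts are to be read against the share of all genes called, which was 36.1% higher and 34.5% lower with shPAX8-1 and 31.5% and 30.9% with shPAX8-2 in 786-M1A cells, and 35.6% and 35.8%, then 34.3% and 34.1%, in OS-LM1 cells. Of 18 other chemokine ligands, 6 were tested in 786-M1A and 7 in OS-LM1 cells. In OS-LM1 cells 4 rose and 2 fell with shPAX8-1 and 3 rose with shPAX8-2 (median log2 fold change 0.82 and 0.51). Among those that rose were CXCL14 and CCL7, a monocyte attractant like CCL2, which went from 0.0214 CPM to 2.86 and 1.23. Both passed the filter on low counts through depleted libraries alone, so that they could only rise. CXCL16 rose there (log2 0.82 and 0.83) and fell in 786-M1A cells (log2 -1.13 and -1.28). In 786-M1A cells 2 rose and 3 fell, then 2 rose and 2 fell (medians of -0.33 and -0.02). There CCL26, an eosinophil attractant, rose from 3.32 to 30.7 and 17.3 CPM and CX3CL1 fell (log2 -1.47 and -1.08). Among the 3 interferon-induced chemokines, only CXCL10 was tested, and only in 786-M1A cells, where it fell from 1.14 CPM to 0.0118 and 0. It passed the filter through its sgNTC18 libraries alone, so that it could only fall. The 0 with shPAX8-2 allows up to 3 counts, or 0.165 to 0.258 CPM. CXCL14 was higher in both lines, though from 0.0541 CPM in 786-M1A and 0.0562 CPM in OS-LM1 cells. In 786-M1A cells too it passed the filter through depleted libraries alone, and the counts there include it.

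Few chemokine receptors were expressed. Of 18 receptors, 5 were tested in each line. With shPAX8-1 and then shPAX8-2, 2 rose and 1 fell and 2 rose in 786-M1A cells (medians of 0.16 and 0.03), and 2 rose and 1 fell and 3 rose and 1 fell in OS-LM1 cells (0.15 and 1.20). Among all genes 31.5% to 36.1% rose and 30.9% to 35.8% fell. ACKR2 rose in 786-M1A cells, from 0.296 to 0.581 and 0.758 CPM. It passed the filter on low counts through depleted libraries alone, so that it could only rise, and the counts there include it. ACKR3, an atypical receptor that scavenges CXCL12, rose in both, from 43.7 to 133.1 and 234.5 CPM in 786-M1A cells and from 28.2 to 94.2 and 64.6 CPM in OS-LM1 cells. CXCR4 fell in OS-LM1 cells (log2 -1.26 and -0.98).

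In the list of 13 genes of the IL6 family and its signalling, 7 rose and 1 fell of 11 tested with shPAX8-1 in 786-M1A cells, and 5 rose and 1 fell with shPAX8-2 (medians of 1.10 and 0.34). In OS-LM1 cells 8 of 12 rose with each construct and 1 fell with shPAX8-2 (0.41 and 0.39). The share of all genes that rose was 36.1% and 31.5% in 786-M1A and 35.6% and 34.3% in OS-LM1 cells. IL11, a relative of IL6, rose from 1.25 to 3.81 and 6.34 CPM in 786-M1A cells, where IL6 fell, and from 6.98 to 18.6 and 52.9 CPM in OS-LM1 cells. The receptor gene IL6R rose in both lines (log2 1.89 and 1.75 in 786-M1A, 0.69 and 0.43 in OS-LM1), as did LIFR. CLCF1, another ligand of the family, fell in 786-M1A cells (log2 -2.60 and -2.13), and OSMR, the oncostatin M receptor, rose in OS-LM1 cells (log2 0.76 and 1.03).

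Of 17 genes for NF-κB subunits and feedback regulators, 10 fell and 1 rose with shPAX8-1 and 12 fell and 3 rose with shPAX8-2 in 786-M1A cells, with medians of -0.43 and -0.84 on the log2 scale, while 34.5% and 30.9% of all genes fell. In OS-LM1 cells 6 rose and 8 fell, and 7 rose and 8 fell (-0.04 and -0.22), while 35.8% and 34.1% of all genes fell. The inhibitor NFKBIB and the kinase subunit IKBKG fell in both lines, IKBKG from 62.8 to 15.8 and 14.8 CPM in 786-M1A and from 40.2 to 9.04 and 8.90 CPM in OS-LM1 cells. The subunit REL rose in 786-M1A cells (log2 1.37 and 1.26), and TNIP1 fell there from 257.2 to 108.7 and 112.6 CPM. NFKBIZ fell (log2 -1.68 and -1.44) and the feedback inhibitor TNFAIP3 rose (log2 0.91 and 1.57) in OS-LM1 cells.

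A further list held 15 NF-κB target cytokines and adhesion genes. In OS-LM1 cells 11 rose and 2 fell of 13 tested with shPAX8-1 and 9 rose and 2 fell with shPAX8-2, with medians of 0.69 and 1.37, while 35.6% and 34.3% of all genes rose. In 786-M1A cells 5 rose and 6 fell of 12 with either construct (-0.15 and 0.02), while 36.1% and 31.5% of all genes rose. IL1B, a cytokine that induces many of these chemokines, went from 0.268 to 103.3 and 39.3 CPM in OS-LM1 cells. In 786-M1A cells it went from 0.104 to 20.9 and 4.16 CPM. That control, 0.104 ± 0.145 CPM (SD, n = 4), lay near the floor of 3 counts (0.0963 to 0.168 CPM). In both lines IL1B passed the filter through depleted libraries alone, so that it could only rise, and the counts above include it. IL1A (0.484 to 21.9 and 7.68 CPM) and LCN2 (1.69 to 9.51 and 15.0 CPM) rose in OS-LM1 cells. The growth factor gene CSF2 rose in OS-LM1 (log2 3.12 and 1.89) and fell in 786-M1A cells (log2 -2.39 and -4.68), and TNFAIP6 and TNFAIP2 fell in 786-M1A cells.

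Many chemokine transcripts are short-lived because of AU-rich elements. The last list held 11 genes for regulators of mRNA stability, not all of which bind such elements. In 786-M1A cells 5 rose and 4 fell with shPAX8-1 and 3 rose and 5 fell with shPAX8-2, and in OS-LM1 cells 4 rose and 2 fell, then 7 rose and 3 fell. The medians were -0.02, -0.15, 0.11 and 0.41, and 31.5% to 36.1% of all genes rose and 30.9% to 35.8% fell. ZFP36L1, which promotes decay of such transcripts, rose in both lines, from 385.6 to 2449.9 and 1651.6 CPM in 786-M1A and from 457.0 to 896.8 and 700.2 CPM in OS-LM1 cells. KHSRP, another decay factor, fell in both (log2 -1.53 and -1.09 in 786-M1A, -0.96 and -0.51 in OS-LM1). RC3H2 rose in both lines, HNRNPD fell in 786-M1A cells, and ZFP36L2 rose in OS-LM1 cells.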

How the data were processed

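RNA-seq of 24 libraries (786-M1A and OS-LM1 cells with sgNTC18, shPAX8-1 or shPAX8-2, 4 replicates each) was used. Per the paper's methods and the submitters' processing notes, the authors mapped reads to hg38 with RSEM and Bowtie2, whose versions are not given in the sources used here. The authors deposited RSEM expected counts and TPM per gene, without normalization between libraries. Transcript and effective length were equal in all 24 files. The labels name a KAPA stranded kit and the paper's methods Lexogen kits. FPKM values were not used.

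After rounding, expected counts were tested in R 4.3.3 with edgeR 4.0.16 (filterByExpr, TMM, robust quasi-likelihood test, Benjamini-Hochberg adjustment, threshold 0.05). Each line was fitted by itself over its 12 libraries, and line comparisons and interactions over all 24. CPM used TMM library sizes, and log2 CPM a prior count of 2. Intervals are 95%, and cover counting error only where a count of 0 is given an upper limit. The procedure was tested on simulated data. Motifs and coordinates came from RefSeq tables of GRCh38.p14.

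The 10 genes and the lists were chosen with earlier results of these data known. The genes named were these 10, PAX8, from each list and line up to 4 genes with the largest mean change among those past the threshold in the same direction with each construct, and the 5 genes most correlated with CXCL8 and with CCL2 (mean log2 CPM of at least 1). Equal replicate numbers did not pair the libraries. Alternatives were DESeq2 1.42.0 and its size factors, no filter beyond 1 count, each library left out, a replicate block, removal of each library's GC trend (spline, 5 degrees of freedom), and either pair of 786-M1A shPAX8-1 libraries.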

Additional observations from a re-analysis of the deposited data

Results flagged for a closer look

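Of 48 group values of the 10 genes (groups with a mean of at least 1 CPM), 1 held a library set apart from the others. It was CXCL8 with shPAX8-1 in OS-LM1 cells, where replicate 3 was at 1203.1 CPM and the others at 739.3 to 808.7 CPM. Chance flags about 1 in 20 such groups, or 2.4 of 48.

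The response to depletion differed between the lines in the test of the difference itself (edgeR, OS-LM1 minus 786-M1A, log2 scale) for CCL2 (4.74), CXCL8 (4.03), IL6 (3.24), CXCL2 (2.92), CCL5 (2.62), CXCL1 (2.14) and CXCL3 (1.23). CCL20 also passed this test (3.27), but it entered it through OS-LM1 alone and had 0 to 9 counts per 786-M1A library, so that its response there was not measurable, and the value was 3.97 without replicate 3 of 786-M1A shPAX8-2. The difference between shPAX8-1 and shPAX8-2 also differed between the lines, for CXCL8 (-2.80), CCL2 (-1.81), CXCL5 (-1.50) and IL6 (-1.42).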

How the results depend on the processing

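Of 104 log2 fold changes of these genes, all kept their direction and side of the threshold with DESeq2, with its size factors and without the filter on low counts. CXCL6 is not among the 104. Fits without that filter included it, and it was then called between the lines. The genes called between the lines, CCL20 included, thereby went from 8 to at most 9 with sgNTC18 and from 9 to at most 10 with shPAX8. Values whose direction changed all belonged to differences that did not pass the test. In 786-M1A cells, CCL2 with shPAX8-1 against sgNTC18 turned to 0.15 with replicates 3 and 4 alone, and ranged from -0.14 to 0.037 with each library left out, and CXCL3 with shPAX8-2 ranged from -0.29 to 0.002. In the interaction of line and construct, CXCL1 was 0.02 with the GC trend removed, CXCL2 was 0.053 with replicates 1 and 2 of 786-M1A shPAX8-1, and CXCL3 and CCL20 were 0.12 and -0.19 with replicates 3 and 4. With each library left out, that interaction ranged from -0.18 to 0.045 for CXCL1, from -0.32 to 0.067 for CXCL3, from -0.018 to 0.74 for CCL5 and from -1.39 to 0.55 for CCL20. All genes called between the constructs in 786-M1A cells numbered 6803, and 3869 with replicates 1 and 2 of shPAX8-1. For the interaction of line and construct 4264 were called, against 2579 with replicates 1 and 2 and 6817 with replicates 3 and 4. The cause was not tested. Same-numbered libraries correlated at 0.047 on average in 786-M1A (5 of 12 pairs over 0.1) and -0.041 in OS-LM1 cells (1 of 12). With the replicate block, the interaction of line and depletion was called for 9 of these genes, CCL20 included, instead of 8, CXCL5 being the addition (0.29, edgeR adjusted p = 0.047), and no other call changed. With the GC trend removed, CXCL5 was also lower with shPAX8-1 than with shPAX8-2 in OS-LM1 cells (-0.30, edgeR adjusted p = 0.0085). CCL2 over both constructs in 786-M1A cells (-0.38) ranged from -0.45 to -0.31 over 12 fits with a library left out. It lost its call in 5 of them, at -0.35 to -0.31. Depth limits CXCL6, and CCL20 in 786-M1A cells.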
